A study of Rattus norvegicus with 8 samples.

Results

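Peripheral myelin genes were described in single nuclei of the rat nodose ganglion, the sensory ganglion of the vagus nerve. The genes were Mbp, Pmp22, Mag, Prx, Mal, Cldn19 and Pllp. They were taken by symbol from the deposited gene list, which gave 7 of 30560 genes, each with 1 entry. Ganglia of untreated Long Evans rats aged 8 weeks, 18 male and 18 female, were divided into 12 pools, each of which combined ganglia of 1 side from 6 rats. There were 3 pools labelled male and left (ML1 to ML3), 3 male and right (MR1 to MR3), 3 female and left (FL1 to FL3) and 3 female and right (FR1 to FR3). The labels name no transgene, deletion or agent for any group. With these numbers the left and right pools of a sex would draw on the same rats, and nothing states which pools share animals. The study compared sides and sexes, and the nuclei of all pools were barcoded together and spread over 8 sublibraries, which are the deposited samples.

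Myelin in peripheral nerve is the membrane of a Schwann cell wrapped many times around 1 axon, with the cytoplasm squeezed out of the compact layers. Mbp (myelin basic protein) joins the cytoplasmic faces of those layers and Pmp22 (peripheral myelin protein 22) is a membrane protein of compact myelin whose gene dosage underlies forms of Charcot-Marie-Tooth neuropathy. Mag (myelin-associated glycoprotein) sits on the inner, axon-facing membrane, and Prx (periaxin) on the outer membrane, where it links to dystroglycan. Mal and Pllp (plasmolipin) are membrane proteins of lipid-rich myelin membrane, and Cldn19 (claudin 19) forms tight junctions within the myelin sheath. In a sensory ganglion, Schwann cells wrap the axons, and satellite glia, which form no compact myelin in the rat, wrap the cell bodies of the neurons.

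The 36740 kept nuclei held 139964438 UMIs (unique molecular identifiers, counted transcripts), from 7139364 to 19456287 per pool, with a median of 2680 UMIs per nucleus. Full barcode names did not repeat, 1865 well combinations occurred in more than 1 sublibrary, and 0 occurred in more than 1 pool. Clusters were made and named without the 7 genes. They gave 2299 myelinating Schwann-like, 5120 satellite glia-like and 24316 neuron-like nuclei, with 3451 nuclei (9.39%) unnamed. In each of the Schwann-like clusters, 3 or 4 of 10 non-myelinating Schwann markers also stood at least 2-fold higher than in the other nuclei. So did 5 to 8 satellite glia markers and 4 fibroblast markers. Whether the class mixes both Schwann types was not tested. Schwann-like nuclei were 2.99% of the nuclei in FL3 and 10.7% in FR2, the lowest and highest pools, and had a median of 1523 UMIs, against 2231 in satellite glia-like and 2900 in neuron-like nuclei (rounded from 2230.5 and 2899.5). The sex labels of ML1 and FL1 went against the 4 Y-linked genes measured, whose summed level was 2.88 CPM (the counts-per-million scale) in ML1 and 88.6 CPM in FL1. Male-labelled pools otherwise lay between 84.4 and 91.3 CPM, and female-labelled pools between 2.73 and 3.95 CPM. Labels were kept as given, and results on sex are also given without both pools. Satellite glia-like nuclei carried the 11 neuron markers at a summed level of 9180 ± 605 CPM, close to the 10449.5 ± 806 CPM of neuron-like nuclei (SD, n = 12 pools). They carried 13 satellite glia markers at 3962 ± 282 CPM, against 485 ± 29.7 CPM in neuron-like nuclei. Schwann-like nuclei carried the same 13 markers at 3092 ± 223 CPM. The ranges over pools, 3427 to 4446 CPM in satellite glia-like and 2730 to 3437 CPM in Schwann-like nuclei, overlapped, so these markers alone set the 2 classes little apart. The part of RNA from neighbouring cells in the levels outside Schwann-like nuclei was not tested. Pools of rats are the replicates throughout, and p-values measure the spread between them. Left and right pools of a sex would share rats, so pools of both sides may not be independent. Tests of labelled sex and correlations over 12 pools take them as independent, and their p-values may be too small.

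Upstream sequences are shown for Mag, Pmp22 and Prx, which held letters bound by SOX or TEAD factors. These are families with members (Sox10, Tead1) that are known to regulate Schwann cell genes. Mbp held such letters too, but its sequence is not shown. The sequences are from RefSeq (GRCr8, not the build of the deposited counts), which had entries for 7 of the 7 genes. Each is the 250 bases before the RefSeq start, on the strand of the gene, with the motif in capitals.
Mag, chr1:95291045-95291294, minus strand: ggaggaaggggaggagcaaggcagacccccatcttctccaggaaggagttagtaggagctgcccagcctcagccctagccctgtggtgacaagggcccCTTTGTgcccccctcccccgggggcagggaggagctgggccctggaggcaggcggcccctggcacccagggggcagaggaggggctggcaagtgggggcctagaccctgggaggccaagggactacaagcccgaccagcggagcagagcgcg
Pmp22, chr10:48294682-48294931, plus strand: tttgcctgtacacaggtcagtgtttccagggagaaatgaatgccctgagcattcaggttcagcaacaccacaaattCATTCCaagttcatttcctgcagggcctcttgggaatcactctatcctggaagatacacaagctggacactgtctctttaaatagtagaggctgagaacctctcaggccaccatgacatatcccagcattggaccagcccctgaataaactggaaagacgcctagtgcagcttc
Prx, chr1:91914171-91914420, plus strand: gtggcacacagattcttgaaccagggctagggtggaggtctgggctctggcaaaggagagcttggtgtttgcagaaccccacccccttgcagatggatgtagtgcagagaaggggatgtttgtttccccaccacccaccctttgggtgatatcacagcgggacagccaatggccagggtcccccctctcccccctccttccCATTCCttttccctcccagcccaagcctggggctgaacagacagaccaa
In Mag the capitals mark CTTTGT, the opposite-strand form of the SOX letters ACAAAG, at bases 152 to 147 before the start. In Pmp22 and Prx they mark the TEAD letters CATTCC, at bases 174 to 169 and 49 to 44. Searched on both strands, ACAAAG stood in 16.3% and CATTCC in 12.1% of the 33469 windows of this length in the table, so such matches are common. The letters ACAAAG also stood before a start of Mbp, and the EGR letters GCGTGGG, found in 3.68% of windows, stood before none of the 7 genes. Mal, Cldn19 and Pllp held none of the 3 motifs. No window of the 7 genes held more than 1 of the 3 motifs, so none overlapped, and a match is a run of letters, not a measured binding site.

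All 7 genes were higher in Schwann-like nuclei than in satellite glia-like and neuron-like nuclei in 12 of 12 pools. Of the 6842 genes tested in Schwann-like nuclei, 1112 (16.3%) did the same. The 7 genes had no part in making or naming the clusters, but the classes come from the same nuclei, so differences between classes are given as a description with no test. Levels are CPM, here UMIs of the gene relative to all UMIs of the class in a pool. They depend on transcript length and capture, so genes are not ranked against each other. In RefSeq, Mbp, Pmp22, Mag and Mal overlap 1 or 2 long non-coding RNA genes and Prx a pseudogene, and whether counting used the strand is not given in the sources used here, so their counts may hold reads of those genes.

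Mbp, the compact-layer adhesive, was at 1569 CPM (ML3), a median of 2018 CPM and 2346 CPM (FL2) in the lowest, middle and highest pools of Schwann-like nuclei. It ran from 183 to 299 CPM (median 238 CPM) in satellite glia-like nuclei and from 52.3 to 95.8 CPM (median 72.3 CPM) in neuron-like nuclei. The 3 classes did not overlap, and the ratio of means was 8.44 for Schwann-like over satellite glia-like nuclei and 28.1 for Schwann-like over neuron-like nuclei. Pmp22 stood at 3223 CPM (ML1), 3622 CPM and 4111 CPM (MR3) in Schwann-like nuclei. It ran in satellite glia-like nuclei from 513 to 731 CPM (median 591 CPM) and in neuron-like nuclei from 224 to 284 CPM (median 245 CPM). Its classes were also separate in every pool, but its ratios, 6.24 over satellite glia-like and 14.7 over neuron-like nuclei, were the smallest of the 7 genes. Of all its UMIs, 37.2% lay in neuron-like and 28.7% in Schwann-like nuclei, whereas Schwann-like nuclei held 36.9% of those of Pllp, 40.3% of those of Mbp and 53.7% to 58.4% of those of the other 4 genes.

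Mag, the axon-facing adhesion molecule, was at 50.9 CPM (MR1), 85.6 CPM and 106 CPM (FL2) in the lowest, middle and highest pools of Schwann-like nuclei. In satellite glia-like nuclei the median was 4.07 CPM and the highest 8.26 CPM (MR1), with 0 UMIs in FL2, where a count of 0 allows up to 4.19 CPM. In neuron-like nuclei Mag ran from 0.627 to 3.22 CPM, with a median of 1.61 CPM. The last 2 classes overlapped, and the lowest Schwann-like pool stood above both. The mean of Mag in Schwann-like nuclei was 19.95 times that in satellite glia-like and 52.9 times that in neuron-like nuclei. Prx, on the outer membrane, was at 551 CPM (ML3), 731 CPM and 919 CPM (ML2) in Schwann-like nuclei. It ran from 40.9 to 71.5 CPM in satellite glia-like nuclei (median 53.9 CPM) and from 6.65 to 20.9 CPM in neuron-like nuclei (median 12.5 CPM). The Schwann-like mean was 13.5 times the satellite glia-like and 56.9 times the neuron-like mean, and no classes overlapped.

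Mal was at 351 CPM (ML1), 430.4 CPM and 667 CPM (FL3) in the lowest, middle and highest pools of Schwann-like nuclei. Its satellite glia-like values ran from 16.7 to 48.5 CPM (median 33.4 CPM) and its neuron-like values from 2.76 to 10.9 CPM (median 6.15 CPM). FL3, the highest Schwann-like pool, was also the lowest neuron-like pool for Mal. Cldn19, the tight junction protein, stood at 37.8 CPM (FR3), 50.2 CPM and 74.3 CPM (FL2) in Schwann-like nuclei. The median of Cldn19 was 2.68 CPM in satellite glia-like nuclei (highest 7.31 CPM, 0 UMIs in FL3, which allows up to 4.50 CPM) and 0.657 CPM in neuron-like nuclei (from 0.125 to 1.55 CPM). Its ratio over neuron-like nuclei, 78.0, was the largest of the 7 genes and rested on 59 UMIs in 24316 neuron-like nuclei. Pllp was at 35.9 CPM (ML2), 56.9 CPM and 77.6 CPM (FR3) in Schwann-like nuclei, from 2.37 to 8.46 CPM in satellite glia-like nuclei (median 5.75 CPM) and from 0.860 to 3.22 CPM in neuron-like nuclei (median 2.52 CPM). For Cldn19 and Pllp, as for Mag, satellite glia-like and neuron-like values overlapped, and Schwann-like values stood apart from both.

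**Figure D1:**
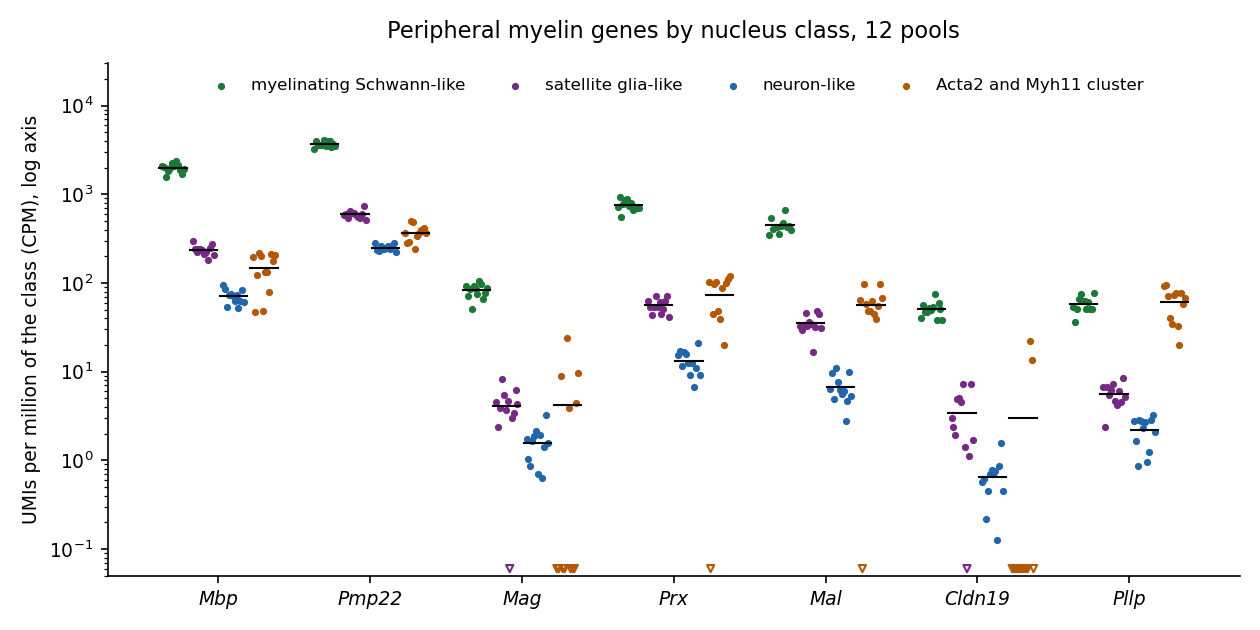
Level of each gene (CPM of the class, log axis) in each of 12 pools, for myelinating Schwann-like, satellite glia-like and neuron-like nuclei and for the cluster led by Acta2 and Myh11; bars are means of the pools and open triangles at the foot are pools with 0 UMIs. The Schwann-like pools stand highest for each gene except Pllp, which the Acta2 and Myh11 cluster reached (61.4 CPM against 58.1 CPM).

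Pllp departed from the other genes in a vascular cluster. This cluster of 666 nuclei was led by Acta2 and Myh11, contractile genes of mural cells, but 7 endothelial as well as 7 mural markers stood at least 2-fold higher in it than in the other nuclei, so it is called by its leading genes. Pllp was at 19.7 CPM (FL3), 69.0 CPM and 93.9 CPM (ML2) in its lowest, middle and highest pools. The mean was 61.4 ± 24.3 CPM (SD, n = 12), against 58.1 ± 11.8 CPM in Schwann-like nuclei, which were higher in 5 of 12 pools. The level rested on 97 UMIs, from 1 to 20 per pool. Pllp made up 8.10% of the UMIs of the 7 genes in this cluster and 0.857% in Schwann-like nuclei. Each of the other 6 genes was lower in the Acta2 and Myh11 cluster than in Schwann-like nuclei in 12 of 12 pools, by ratios of means from 7.85 (Mal) to 19.4 (Mag). The ratio of Mag rested on 6 UMIs in the cluster, with 0 in 7 of 12 pools. Cldn19 had 5 UMIs there, with 0 in 10 of 12 pools. A UMI of Pllp was seen in 12.2% of the nuclei of this cluster (95% exact binomial interval 9.78% to 14.9%), and in 11.1% (9.88% to 12.5%) of Schwann-like nuclei, at median depths of 1695 (rounded from 1694.5) and 1523 UMIs. In the 394 endothelial-like nuclei the level was 21.1 ± 21.5 CPM. Most of those, 316 nuclei, were in a cluster in which 6 myelinating Schwann markers were also raised at least 2-fold.

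The share of nuclei with at least 1 UMI followed the same order in the 3 main classes. Mbp was seen in 89.3% of Schwann-like nuclei (95% exact binomial interval 88.0% to 90.6%), 43.7% of satellite glia-like and 20.5% of neuron-like nuclei. For Pmp22 the shares were 95.6%, 71.8% and 47.2%, for Prx 64.3%, 14.6% and 4.39%, and for Mal 51.2%, 10.4% and 2.32%. The low-count genes were seen in few nuclei of any class, with 14.7%, 1.56% and 0.580% for Mag, 11.1%, 1.97% and 0.851% for Pllp and 9.53%, 1.39% and 0.243% for Cldn19. Neuron-like nuclei were nearly 2900 UMIs deep at the median, so each nucleus was also thinned to 1000 UMIs, which left out 317 Schwann-like, 372 satellite glia-like and 975 neuron-like nuclei. The thinned shares were 80.6%, 21.8% and 7.12% for Mbp, 91.3%, 44.4% and 19.8% for Pmp22, and 7.57%, 0.569% and 0.223% for Mag. The order of the classes was the same after thinning for each of the 7 genes. Neurons make no myelin, and whether a UMI of Mbp or Pmp22 in a neuron-like nucleus reflects expression of the gene there was not tested. Intervals cover counting error only.

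More of the 7 genes were seen per nucleus in Schwann-like nuclei, where each gene alone was also seen in the largest share of nuclei. The number per nucleus that those single shares would give was not computed. At least 4 of the 7 were seen in 47.1% of Schwann-like nuclei, 3.85% of satellite glia-like and 0.333% of neuron-like nuclei, and the median nucleus had 11, 2 and 1 UMIs of the 7 genes. None of the 7 was seen in 1.22% of Schwann-like, 18.5% of satellite glia-like and 42.6% of neuron-like nuclei. Within Schwann-like nuclei thinned to 1000 UMIs, Prx was seen in 49.6% of nuclei with Pmp22 and 24.9% of those without it, and Mal in 41.6% of nuclei with Prx and 28.3% of those without. Mag showed less of this, with Prx in 50.7% of nuclei with Mag and 47.2% of those without. Spearman's rho between 2 genes over these 1982 nuclei was at most 0.296 (Mbp and Pmp22), a description over nuclei that share pools.

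The relative amounts of the 7 genes also differed between classes, described with no test. Pmp22 took 52.3% of their UMIs in Schwann-like nuclei (33856 UMIs), 63.5% in satellite glia-like nuclei (16772 UMIs) and 72.6% in neuron-like nuclei (31674 UMIs), and was larger in that order in 12 of 12 pools. Prx took 10.7%, 6.06% and 3.72% and Mal 6.20%, 3.80% and 1.88%, each smaller in that order in 12 of 12 pools. Mbp took 28.0%, 25.1% and 20.5%, smaller in that order in 11 of 12 pools. Pmp22 therefore stood at 1.87 UMIs per UMI of Mbp in Schwann-like, 2.53 in satellite glia-like and 3.54 in neuron-like nuclei. In satellite glia-like and neuron-like nuclei Pmp22 thus took a larger, and Prx and Mal a smaller, share than in Schwann-like nuclei. This did not hold for every other class, since in the Acta2 and Myh11 cluster Pmp22 took 50.3%, Prx 10.7% and Mal 8.35% of the UMIs of the 7 genes.

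**Figure D2:**
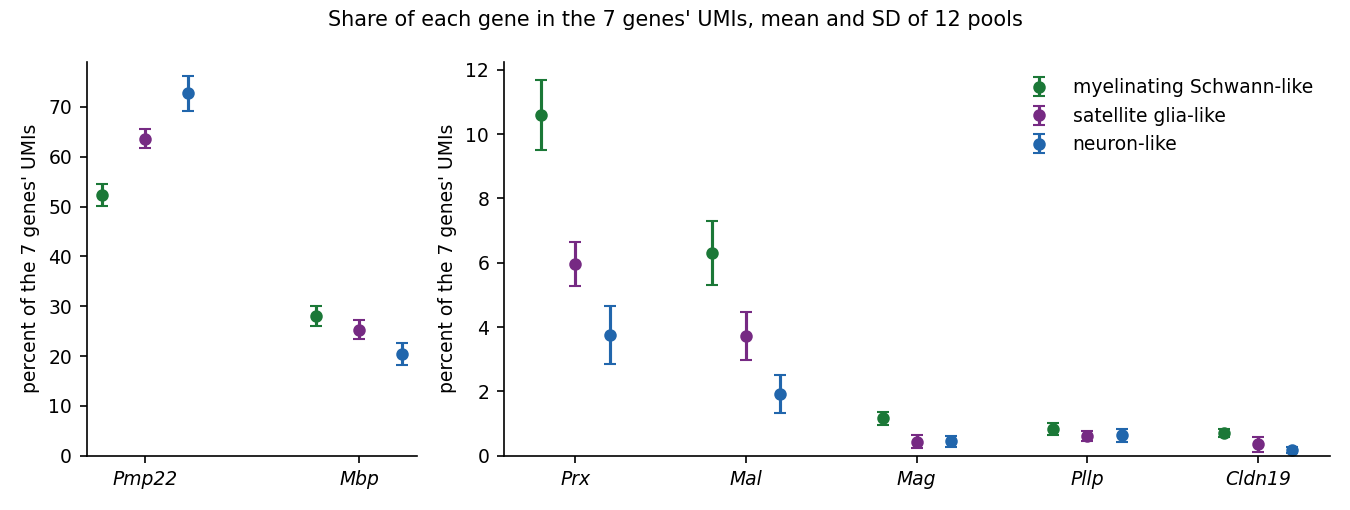
Share of each gene in the summed UMIs of the 7 genes (percent), as mean and SD of 12 pools, in myelinating Schwann-like, satellite glia-like and neuron-like nuclei. Over the pools together the share of Pmp22 goes from 52.3% to 72.6%, while those of Prx and Mal go from 10.7% to 3.72% and from 6.20% to 1.88%.

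Schwann-like nuclei fell into 3 clusters that differed in the level of the 7 genes, described here with no test. Cluster g9 (508 nuclei, with Prx, Bcas1 and Il16 among its leading genes) was the highest of the 3 in 12 of 12 pools for Mbp, Pmp22, Prx and Mal, in 10 for Cldn19, in 9 for Mag and in 8 for Pllp. Cluster g2 (1003 nuclei, with Grin2b, Prx and Mlip among its leading genes) had the lowest mean for each gene but Pllp, and g5 (788 nuclei, led by Grin2b, Mlip, Adarb2 and Prkcq) stood between them. Pmp22 was at 2664 ± 373 CPM in g2, 3438 ± 328 CPM in g5 and 6294 ± 771 CPM in g9 (SD, n = 12). Pmp22 ranges were 2196 to 3404 CPM in g2 and 4970 to 7734 CPM in g9 (the lower end rounded from 4969.6), which do not overlap. Prx was at 542 ± 75.6 CPM, 698 ± 110 CPM and 1261 ± 201 CPM, and its g2 and g9 ranges did not overlap either. The ratio of means of g9 over g2 ran from 1.63 for Pllp to 3.06 for Cldn19. Pllp broke the order, with 60.3 ± 21.3 CPM in g2, 42.1 ± 18.9 CPM in g5 and 98.6 ± 45.0 CPM in g9, and exceeded its g2 level in g5 in 4 of 12 pools. The 3 clusters also differed in the 11 neuron markers, which summed to 5354 ± 601 CPM in g2, 2315 ± 439 CPM in g5 and 3783 ± 823 CPM in g9, and in median depth (1224 UMIs in g2, 2228 in g5, rounded from 2227.5, and 1397 in g9). Scn7a and Cadm2, of the non-myelinating Schwann list, stood at 4778 and 5685 CPM in g2 over all pools. They were at 6561 and 8781 CPM in g5 and at 3372 and 4390 CPM in g9. Sorcs1 of that list was instead highest in g9 (2682 CPM, against 1700 CPM in g2 and 2292 CPM in g5). The part of neuron markers, depth or Schwann type in the levels was not tested.

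**Figure D3:**
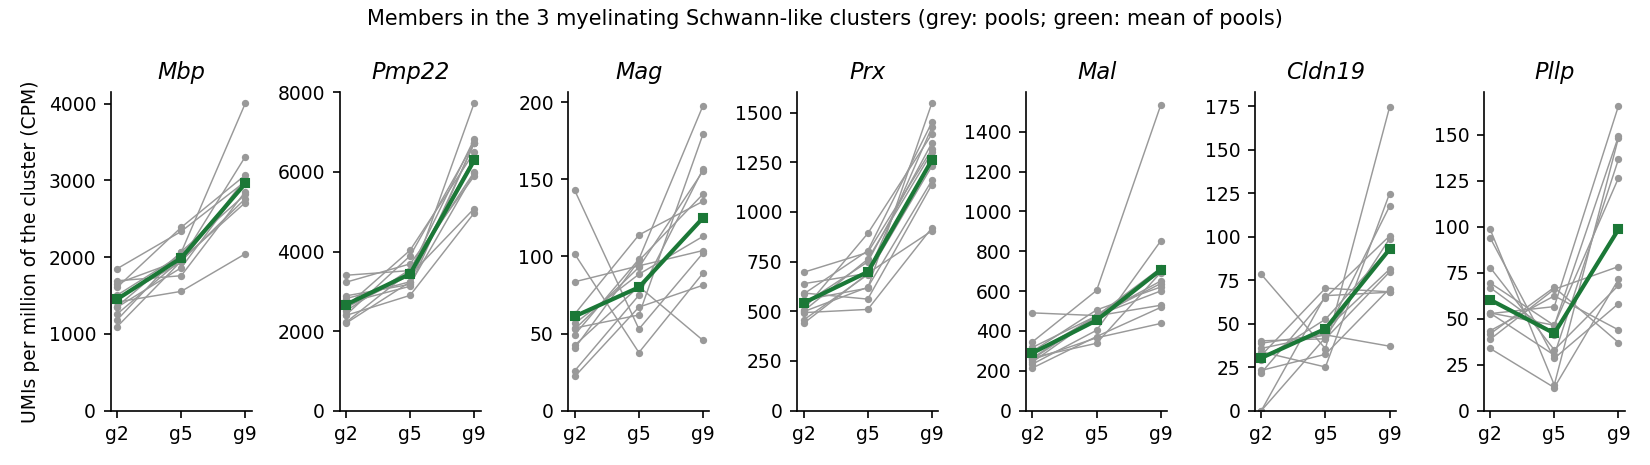
Level of each gene (CPM of the cluster) in the 3 myelinating Schwann-like clusters g2, g5 and g9; each grey line is 1 of 12 pools and the green line is their mean. The 7 means are highest in g9, and the grey lines rise to g9 in each pool for Mbp, Pmp22, Prx and Mal.

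Across all 47 clusters, the genes whose pattern was most like the mean of the 7 (Pearson's r of log2(CPM + 5), a description) included Fa2h (0.97), Secisbp2l (0.96), Gjc3 (0.96), Emid1 (0.96), Mlip (0.96), Il16 (0.96), RGD1563354 (0.95), Gldn (0.95) and Grin2b (0.95). Fa2h encodes the enzyme that makes hydroxylated myelin lipids, and Gldn (gliomedin) a protein of the node of Ranvier. Fa2h stood at 415 CPM in Schwann-like, 51.4 CPM in satellite glia-like and 13.02 CPM in neuron-like nuclei over all pools, and Grin2b, a subunit of the NMDA receptor, at 1149, 121 and 19.2 CPM. Of the 7 genes themselves, Prx lay nearest to their mean (0.98) and Pllp farthest from it (0.85). Each of these genes also enters the clusters or the mean it is set against.

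Other myelin genes were read from lists by role. Lists were counted over measured genes, while the 16.3% given above is of the 6842 genes tested in Schwann-like nuclei. Of the compact myelin list 4 of 6 were tested, of the junction list 10 of 11. For transcription factors it was 13 of 15 and for premyelinating and repair genes 8 of 10. Counted were genes higher in Schwann-like than in both other classes in 12 of 12 pools. Of the compact myelin genes described here, Bcas1 was, at 499.5 ± 52.02 CPM in Schwann-like, 27.0 ± 8.62 CPM in satellite glia-like and 10.1 ± 3.07 CPM in neuron-like nuclei. Cd9, a tetraspanin, was too, at 297 ± 26.4, 111 ± 11.8 and 32.6 ± 9.13 CPM. Pmp2 and Tspan2 of the same list, named after their values were seen, were not. Pmp2 was at 19.3 ± 10.9, 11.1 ± 2.84 and 0.771 ± 0.520 CPM, and Tspan2, at 12.6 ± 6.42, 41.8 ± 8.15 and 25.98 ± 3.395 CPM, had its lowest mean in Schwann-like nuclei. Of the paranode and junction genes, 7 of 11 measured were, among them Epb41l2, Gldn and Tjp1. Tjp1 was at 414 ± 40.6 CPM in Schwann-like, 263 ± 21.5 CPM in satellite glia-like and 322 ± 15.4 CPM in neuron-like nuclei. Gldn stood at 224 ± 37.1 against 15.8 ± 3.78 CPM and Epb41l2 at 556 ± 50.8 against 360 ± 19.1 CPM in Schwann-like and satellite glia-like nuclei. Nfasc, which neurons also use at the node, was at 455 ± 46.8 CPM in Schwann-like and 558 ± 32.1 CPM in neuron-like nuclei and was not among those higher in every pool. Cdh1, an adhesion protein of junctions named after its values were seen, was not either, at 217 ± 40.7 CPM in Schwann-like and 364 ± 25.5 CPM in satellite glia-like nuclei. Each of the 8 measured genes of the outer dystroglycan and integrin complexes was, among them Dmd, Lama2, Utrn and Lama4, at 4011 ± 583, 3461 ± 273, 2326 ± 121 and 941 ± 96.1 CPM in Schwann-like nuclei. These encode dystrophin, laminin chains and utrophin, partners of the complex that Prx joins.

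Transcription factors of the myelin programme were higher in 7 of 15 cases. Sox10, the glial master factor, was at 230 ± 28.5 CPM in Schwann-like, 104 ± 9.92 CPM in satellite glia-like and 5.87 ± 1.95 CPM in neuron-like nuclei. Tead1 was at 622 ± 53.6, 207 ± 18.1 and 67.6 ± 10.1 CPM in those classes. Zeb2 and Wwtr1 were also higher in every pool, at 2890 ± 126 against 1183 ± 90.5 CPM and 503 ± 49.9 against 202 ± 17.9 CPM in Schwann-like and satellite glia-like nuclei. Egr2, the factor that switches on myelination, was named after its values were seen, at 34.7 ± 10.5, 2.84 ± 1.38 and 0.722 ± 0.440 CPM. The list of myelin lipid enzymes went less clearly with the 7 genes: 4 of 18 were higher, among them Fa2h and Ugt8 (429 ± 43.9 against 51.8 ± 6.47 CPM, and 342 ± 52.7 against 87.5 ± 14.4 CPM, in Schwann-like and satellite glia-like nuclei). Its median log2 ratio of Schwann-like over satellite glia-like nuclei was -0.52, against 0.05 for all genes tested and 3.05 for the 7 genes. Scd2 and Hmgcs1, of fatty acid desaturation and cholesterol synthesis, were at 1161 ± 133 against 1990.1 ± 169 CPM and 360 ± 44.6 against 665 ± 65.0 CPM. Of 18 signalling and Charcot-Marie-Tooth disease genes, 10 were higher, among them Adgrg6, the receptor that starts myelination (519 ± 73.9 against 267 ± 17.5 CPM), Sh3tc2 (501 ± 63.998 against 173 ± 18.2 CPM), Sbf2 and Arhgef10. Of 10 premyelinating and repair genes, 4 were, including Cadm2 (6933 ± 1067 against 1457 ± 164 CPM) and Scn7a (5268 ± 616 against 2451 ± 219.7 CPM), while Ncam1 (1343 ± 129 against 1279 ± 42.4 CPM) and L1cam (278 ± 41.9 against 411 ± 29.6 CPM) were not.

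Genes of oligodendrocytes, the myelin cells of the brain and spinal cord, were at or near 0 in Schwann-like nuclei, apart from Tmem63a. None of 10 passed the filter on low counts, and their sum was 7.82 CPM, 18.2 CPM and 36.6 CPM in the lowest, middle and highest pools, most of it Tmem63a (17.4 ± 8.32 CPM). Olig1, Olig2, Opalin and Nkx6-2, named here for their counts of 0 in the class, were limited by that count to at most 0.612 CPM each. Drp2, also on the lists, was not analysed here.

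No difference between left and right pools was called for any of the 7 genes in Schwann-like nuclei, in which 7 of 7 could be tested. The test was edgeR's quasi-likelihood test on UMIs summed per pool, with labelled sex as a term and Benjamini-Hochberg adjustment over 6842 genes, of which 0.0292% were called. It gave 0 of 7 at an unadjusted p under 0.05 (5.85% of all genes), and DESeq2 and limma-voom also called 0. Mbp was at 2049 ± 257 CPM in left and 1928 ± 200 CPM in right pools, and Pmp22 at 3735 ± 335 and 3651 ± 245 CPM (SD, n = 6 each). Mag ran from 71.9 to 106 CPM (median 89.3 CPM) in left and from 50.9 to 91.4 CPM (median 81.7 CPM) in right pools. Its log2 difference, right over left, was -0.24 ± 0.16 (SE, adjusted p = 0.93 by edgeR's quasi-likelihood test). Pllp lay from 35.9 to 61.9 CPM (median 52.1 CPM) in left and from 50.5 to 77.6 CPM (median 64.6 CPM) in right pools, a difference of 0.26 ± 0.19 (SE, edgeR adjusted p = 0.93). The other 5 differences lay between -0.15 (Mal) and 0.05 (Prx), and left and right pools overlapped for each gene. Without ML1 and FL1 the difference of Mal was -0.30 ± 0.11 (SE, edgeR unadjusted p = 0.0095, adjusted p = 0.80) and 0 of 7 genes were called.

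Labelled sex likewise gave no call in Schwann-like nuclei (0 of 7 genes, 0 of 7 at an unadjusted p under 0.05 against 5.69% of all genes, 0 by DESeq2 and limma-voom, 0% of all genes called by edgeR). Mal had the largest difference, female-labelled over male-labelled, 0.17 ± 0.10 on the log2 scale (SE, edgeR adjusted p = 0.94). It was at 474 ± 97.8 CPM in female-labelled and 419 ± 71.0 CPM in male-labelled pools, whose ranges, 394 to 667 CPM and 351 to 544 CPM, overlapped. Prx stood at 714 ± 51.2 and 785 ± 134 CPM, a log2 difference of -0.11 ± 0.09 (SE, edgeR adjusted p = 0.96). Without ML1 and FL1, Mal and Prx differed by 0.12 and -0.15 on the log2 scale, with adjusted p of 0.91 and 0.89, and still 0 of 7 genes were called. Over all genes those 2 pools mattered more, since 18 genes were called by labelled sex without them. The interaction of side and labelled sex called 0 of 7 genes (0.0731% of all genes, 0 members by DESeq2 and limma-voom), with 1, Mbp, at an unadjusted p under 0.05 (7.02% of all genes). Its value, the log2 right-over-left difference in female-labelled pools minus that in male-labelled pools, was -0.35 ± 0.16 (SE, edgeR adjusted p = 0.66), and -0.48 ± 0.17 without ML1 and FL1 (adjusted p = 0.48). The other myelin genes on the lists gave no call by edgeR in Schwann-like nuclei for side, labelled sex or their interaction. At an unadjusted p under 0.05 there were 0 to 3 genes of a list in each comparison. The highest counts were 3 of 18 signalling and disease genes by side (5.85% of all genes) and 2 of 8 premyelinating and repair genes by labelled sex (5.69%). For the interaction the highest was 3 of 8 dystroglycan and integrin genes (7.02%).

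In satellite glia-like nuclei Mbp, Pmp22, Prx and Mal passed the filter on low counts, and Mag, Cldn19 and Pllp did not. None of the 4 was called by edgeR for side (0% of 10750 genes), labelled sex (0.0465%) or their interaction (0%), and DESeq2 and limma-voom called 0. At an unadjusted p under 0.05 the counts were 1, 0 and 1 of 4, beside 5.34%, 7.35% and 6.97% of all genes. The first was Mal, from 16.7 to 34.4 CPM (median 32.2 CPM) in left and from 30.7 to 48.5 CPM (median 40.8 CPM) in right pools. Its log2 difference was 0.33 ± 0.15 (SE, edgeR adjusted p = 0.88), and 0.45 ± 0.19 without ML1 and FL1 (adjusted p = 0.81). The other was the interaction of Mbp, at 0.34 ± 0.15 (SE, edgeR adjusted p = 0.68).

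In neuron-like nuclei the 6 genes other than Cldn19 passed the filter, and none was called by side (0.13% of 13845 genes), labelled sex (0%) or their interaction (0%). DESeq2 and limma-voom called 0 of the 6, and the counts at an unadjusted edgeR p under 0.05 were 1, 1 and 0 of 6, beside 7.35%, 18.9% and 3.97% of all genes. The first was Mag, from 0.627 to 1.91 CPM (median 0.942 CPM) in left and from 1.43 to 3.22 CPM (median 1.77 CPM) in right pools, with a log2 difference of 0.76 ± 0.31 (SE, edgeR adjusted p = 0.62). The second was Prx, at 14.9 ± 2.26 CPM in male-labelled and 11.5 ± 4.98 CPM in female-labelled pools, with a log2 difference of -0.43 ± 0.20 (SE, edgeR adjusted p = 0.26) and -0.36 ± 0.23 without ML1 and FL1 (adjusted p = 0.48). Pllp had 1.70 ± 0.853 CPM in left and 2.69 ± 0.416 CPM in right pools, a log2 difference of 0.50 ± 0.27 (SE, edgeR adjusted p = 0.73), which became 1.14 ± 0.26 without ML1 and FL1 (unadjusted p = 0.00066, adjusted p = 0.30). Right over left, 5 of the 6 values were above 0, Pmp22 being the exception at -0.01.

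The level of each gene in neuron-like nuclei was set against its load in Schwann-like nuclei, the UMIs of that gene in Schwann-like nuclei relative to all UMIs of the pool, also in CPM. FL3 had the lowest and FR2 the highest load for each of the 7 genes. These pools also had the lowest and highest shares of Schwann-like nuclei (2.99% and 10.7%). For Prx the load ran from 8.18 (FL3) to 46.7 (FR2), and neuron-like nuclei of those pools had 6.65 and 20.9 CPM. Mbp loads in FL3 and FR2 were 26.6 and 114, with 52.3 and 84.2 CPM in neuron-like nuclei, while Pmp22 loads were 49.6 and 247, with 241 and 284 CPM. The gap between these pools in neuron-like nuclei was thus narrow for Pmp22 and wide for Prx. The depth of neuron-like nuclei moved too, with a median of 3689 UMIs in FL3 and 2809 UMIs in FR2, and its part in the relation was not tested.

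Pearson's r over the 12 pools was highest for Prx, 0.92 (permutation p = 6e-05, adjusted over 7 genes p = 0.00042), with Spearman's rho of 0.89 (adjusted permutation p = 0.0017). For Mag r was 0.82 (permutation p = 0.0016, adjusted p = 0.0055), for Cldn19 0.78 (p = 0.0043, adjusted p = 0.0094), for Mal 0.73 (p = 0.0054, adjusted p = 0.0094) and for Mbp 0.70 (p = 0.012, adjusted p = 0.017). Pmp22 and Pllp had r of 0.66 (permutation p = 0.015, adjusted p = 0.018) and 0.65 (p = 0.023, adjusted p = 0.023). Spearman's coefficient was 0.78 for Mag, 0.76 for Mbp, 0.66 for Pllp, 0.65 for Mal, 0.59 for Pmp22 and 0.55 for Cldn19, and its adjusted p was above the threshold for the last 2 (0.057 and 0.068). Without the 2 pools farthest from the median load (FR2 and 1 other), r of Prx was 0.80 (adjusted permutation p = 0.038). For the other 6 genes r ran from 0.26 (Cldn19) to 0.63 (Mag), and their adjusted permutation p no longer passed (0.14 to 0.47). The loss of those 2 pools and the smaller number of pools cannot be told apart here. The r of these 6 genes stayed above 0 in the 10 pools that were left. Without FR2 alone 2 of 7 passed, Prx (r = 0.87, adjusted p = 0.003) and Mal (0.72, adjusted p = 0.045), and without FL3 alone 5 of 7. The relation was not computed for any other gene. The share of all genes that would pass is therefore not known, and the relation cannot be called particular to these 7. Within the 6 left pools r of Prx was 0.85 (exact permutation p = 0.036) and within the 6 right pools 0.98 (exact permutation p = 0.0056). For the other genes r within a side ran from 0.28 (Pllp, left) to 0.91 (Mag, right), all above 0, but most did not pass. The exact permutation p was 0.036 and 0.089 for Mag in left and right pools, 0.097 and 0.036 for Mbp, and 0.39 and 0.033 for Pmp22. For Mal, Cldn19 and Pllp it lay from 0.10 to 0.58 within either side.

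**Figure D4:**
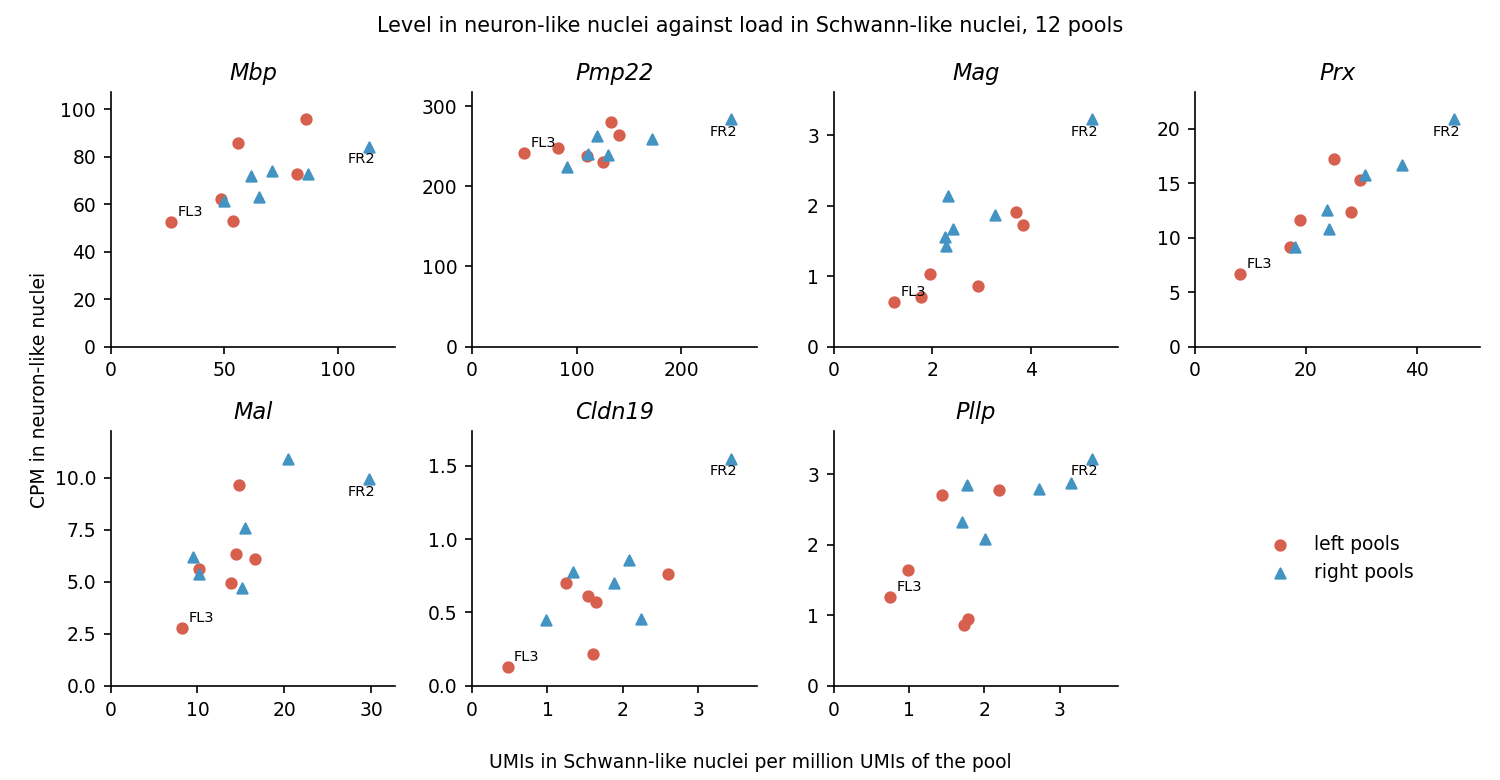
Level of each gene in neuron-like nuclei (CPM of neuron-like nuclei) against its load in Schwann-like nuclei (CPM of the whole pool), 1 point per pool, circles for left and triangles for right pools. FL3 lies at the low and FR2 at the high end of each load axis, and the points of Prx lie closest to a line (r = 0.92).

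Among neuron-like nuclei, levels moved with depth and with neuron cluster. From the shallowest to the deepest of 4 equal depth bins of these nuclei (median 1276 to 6686 UMIs), Mbp went from 100.3 to 62.9 CPM, Prx from 22.8 to 10.5 CPM and Mal from 11.6 to 5.07 CPM. Pmp22 went from 255 CPM through 222 and 223 CPM to 272 CPM. Pmp22 in satellite glia-like nuclei went from 708 to 567 CPM over the depth bins and Mbp from 305 to 217 CPM. So the deepest neuron-like nuclei held the lowest levels of Mbp, Prx and Mal but the highest level of Pmp22, described with no test.

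The 22 neuron-like clusters ranged from 154 CPM (n14, led by Pcdh15, Ndst4 and Nxph1 among named genes) to 464 CPM (n13, led by Spp1, Kcna1, Nefh, Syt2 and Nefm) in Pmp22. Nefh and Nefm encode neurofilaments of large myelinated sensory neurons. In n13 Pmp22 ran from 323 to 616 CPM per pool (472 ± 83.02 CPM, SD, n = 12) and in n14 from 104 to 207 CPM (154 ± 32.0 CPM). The ranges did not overlap, n13 was above n14 in 12 of 12 pools, and it was the highest of the 18 clusters present in every pool in 11 of 12. Clusters n7 (led by Tac1 and Calca, genes of peptide-releasing sensory neurons) and n6 followed n13, at 359 ± 30.2 and 339 ± 41.0 CPM, which overlapped. Cluster n25, with nuclei in 11 pools, had 429 CPM over all pools. Mbp ran from 45.3 CPM (n23) to 147 CPM (n25) and stood at 99.4 ± 38.0 CPM in n13 and 52.3 ± 20.02 CPM in n14, with overlapping ranges. Over the 22 clusters Pearson's r of Pmp22 with Mbp was 0.59. It is given as a description with no p, since clusters share pools and depth. Median depth was 1757 UMIs in n13 and 3333 UMIs in n14, and its part in their difference was not tested.

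**Figure D5:**
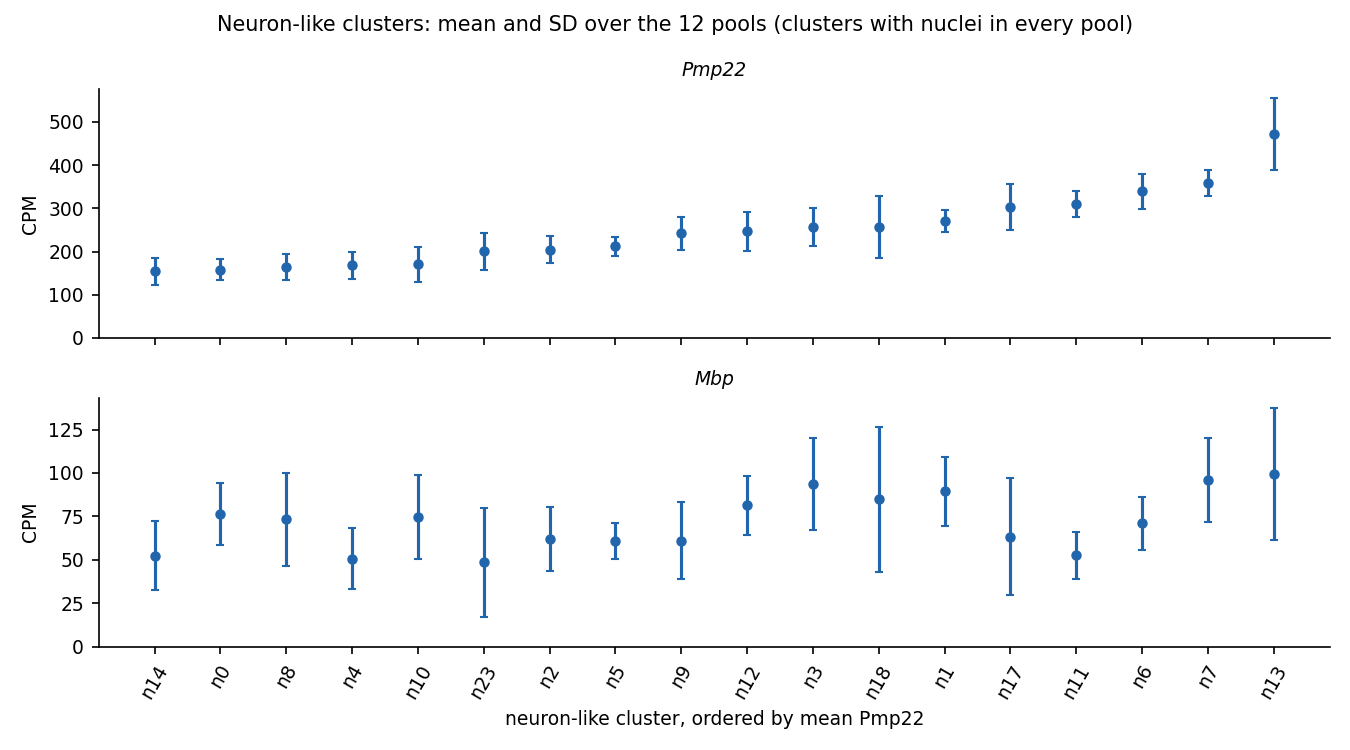
Pmp22 (top) and Mbp (bottom) in the 18 neuron-like clusters with nuclei in each pool, as mean and SD of 12 pools in CPM of the cluster, ordered by Pmp22. Pmp22 goes from 154 CPM in n14 to 472 CPM in n13, and Mbp from 52.3 CPM to 99.4 CPM in the same clusters, with wider SDs relative to its level.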

How the data were processed

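The 12 pools were read from 1 deposited matrix of UMI counts per nucleus and gene. Per the labels' protocols, nuclei were barcoded with a split-pool kit before sequencing. Per the submitters' processing notes, the build was mRatBN7.2 and the tools R 4.3.2 and Seurat 4.1.3. Aligner, counting settings and filters before deposit were not given in the sources used here. Raw counts were deposited by the authors without normalization. A minimum of 300 genes and a limit of 5% on mitochondrial UMIs left 36740 of 36741 nuclei. The 7 genes were left out of the clustering genes and naming markers. Nuclei were clustered with scanpy 1.11.5 and leidenalg 0.10.2 (30 principal components, 20 neighbours, resolution 1) and then again within classes. A non-neuronal cluster was named by 3 or more markers of a list that were 2-fold higher (pseudocount 5 CPM) in at least 10% of its nuclei. At least 1 had to be among its 10 leading genes. In the first clustering, clusters without a non-neuronal name were neuronal where at least 3 neuron markers were 1.5-fold higher in at least 10% of nuclei. No rule on leading genes applied to neurons. Some naming choices were made after clusters were seen: neuron markers were read against named non-neuronal clusters other than satellite glia, neuron subclusters with 3 markers of a non-neuronal list were left unnamed, and so were non-neuronal subclusters sharing 3 leading genes with neuron subclusters. Scrublet called 2 nuclei as doublets, so it hardly worked, and an alternative left out the 5% of nuclei with the highest scores.

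Counts were summed per pool and class. Side, labelled sex and their interaction were tested with edgeR 4.0.16 (quasi-likelihood, TMM, low-count filter, Benjamini-Hochberg over all genes tested, threshold 0.05), which was also tested on simulated data. Alternatives were DESeq2 1.42.0, limma 3.58.1 (voom), library totals without TMM, no filter, resolutions 0.5 and 2, the 7 genes kept in clustering, without ML1 and FL1, each pool left out, and the pool number as a block. Correlations over pools used 100000 resamples, or all orders within a side. The 7 genes were described in full, with the 4 genes of each list with the highest mean CPM over pools in Schwann-like nuclei and the 10 genes nearest in pattern. Some genes that this rule takes in are not reported here. The members and lists were chosen with earlier results of these data known.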

Additional observations from a re-analysis of the deposited data

Results flagged for a closer look

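Of 84 groups of 6 pools examined, 6 held a pool far from the other 5, where chance gives about 1 in 20 groups. Pmp22 in Schwann-like nuclei was at 4111 CPM in MR3, the next right pool being at 3660.4 CPM. Mal in Schwann-like nuclei was at 667 CPM in FL3, the next female-labelled pool being at 477 CPM. FL3 had the fewest Schwann-like nuclei (66). In satellite glia-like nuclei, Mbp was at 299 CPM in ML1 against at most 244 CPM in the other male-labelled pools, and ML1 is a pool whose Y-linked genes went against its label. Mal was at 16.7 CPM in FL2 against at least 29.6 CPM in the other left pools of satellite glia-like nuclei, and Pllp at 2.37 CPM in ML2 against at least 5.51 CPM in the other male-labelled pools. Cldn19 in neuron-like nuclei was at 1.55 CPM in FR2 against at most 0.856 CPM in the other right pools, and FR2 had the largest share of Schwann-like nuclei (10.7%).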

How the results depend on the processing

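No alternative called any of the 7 genes by side, labelled sex or their interaction in the 3 classes. The smallest adjusted p of a gene by side or labelled sex under any of them was 0.0978. Of 34 log2 differences by side or labelled sex, 16 changed sign under some alternative, none larger than 0.12 at first or 0.13 after the change. All 7 genes stayed higher in Schwann-like than in satellite glia-like and neuron-like nuclei in every pool under each setting except sublibraries taken alone, where the count was 4 (Mbp, Pmp22, Prx and Mal) in 7 sublibraries and 5, with Cldn19, in the other. The relation to load, computed for the 7 genes only, passed for 2 to 7 of them when 1 pool was left out, 2 without FR2. Sign changes by side were as follows. In Schwann-like nuclei Pmp22 was 0.0048 at resolution 0.5. Mbp in satellite glia-like nuclei was -0.018 at resolution 2. In neuron-like nuclei Mbp was -0.0050 at resolution 2, and Pmp22 was 0.0037 with library totals, 0.00011 without a filter and 0.034 without ML1 and FL1. By labelled sex, Pmp22 in Schwann-like nuclei was -0.0099 with library totals, -0.020 without ML1 and FL1 and -0.012 with the 7 genes in the clustering. Satellite glia-like nuclei had Pmp22 at 0.0067 at resolution 2, and Mal 0.0081 at resolution 0.5 and 0.0074 without high doublet scores. In neuron-like nuclei Pmp22 was -0.0013 at resolution 0.5, and Mag 0.13 without ML1 and FL1 and 0.028 without high doublet scores. With 1 pool left out in turn, the differences that changed sign ran by side in myelinating Schwann-like nuclei -0.036 to 0.10 for Prx and -0.17 to 0.067 for Cldn19, by labelled sex in myelinating Schwann-like nuclei -0.031 to 0.099 for Mbp, -0.041 to 0.048 for Pmp22, -0.057 to 0.21 for Mag and -0.15 to 0.086 for Pllp, by side in satellite glia-like nuclei -0.021 to 0.14 for Mbp. They ran by labelled sex in satellite glia-like nuclei -0.11 to 0.023 for Pmp22, -0.17 to 0.096 for Prx and -0.11 to 0.092 for Mal, by side in neuron-like nuclei -0.072 to 0.11 for Mbp and -0.043 to 0.037 for Pmp22, by labelled sex in neuron-like nuclei -0.022 to 0.058 for Pmp22, -0.39 to 0.070 for Mag and -0.29 to 0.10 for Pllp. The cause was not tested.

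Over all genes, edgeR called 18 by side in neuron-like nuclei, against 78 by DESeq2, 51 without a filter, 3 with the block, 1 without ML1 and FL1 and 1 to 14 with 1 pool left out (1 without MR2, 2 without MR3, 4 without MR1, FR2 or FR3). By labelled sex it called 0 in neuron-like nuclei (2617 at an unadjusted p under 0.05), against 369 by DESeq2, 468 without a filter, 14 with the 7 genes in the clustering, 27 without ML1 and FL1 and 0 to 509 with 1 pool left out (509 without MR1, 185 without ML3, 149 without FR3, 10 without ML1 or FL1, 0 without any other). By labelled sex it called 5 in satellite glia-like nuclei, 2 to 29 with 1 pool left out (29 without MR1, 21 without ML1), and 0 in Schwann-like nuclei, 0 to 13 (13 without ML1, 12 without FL1). Pools of 1 number on both sides did not deviate together (r from -0.089 to 0.161), so the numbers were not taken as pairs. With the pool number as a block 0 of 7 genes were called, Mal by side in satellite glia-like nuclei being 0.41 (adjusted p = 0.76 by edgeR) and Mag in neuron-like nuclei 0.76 (adjusted p = 0.48). Depth limits Mag, Cldn19 and Pllp most.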
